A study of Mus musculus with 12 samples.

Results

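The genes described here encode 10 proteoglycans and glycoproteins of the liver matrix, measured in 12 mice of a hepatic fibrosis model. They were taken by name: the small leucine-rich proteoglycans decorin (Dcn), lumican (Lum) and biglycan (Bgn), the large proteoglycan versican (Vcan), fibronectin (Fn1), the matricellular proteins thrombospondin-1 (Thbs1), SPARC (Sparc) and periostin (Postn), extracellular matrix protein 1 (Ecm1) and the fibulin Efemp1. All 10 were found among the 14188 protein-coding genes of the table, with 35 of its 29883 transcripts. Each value is FPKM, a count of sequenced fragments scaled to transcript length and to the reads mapped in that mouse, and the FPKM of a gene is the sum over its listed transcripts.

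Every mouse had been injected intraperitoneally with carbon tetrachloride (CCl4, a liver toxin) in corn oil, 10 µl of the mixture per g of body weight, 2 times a week. The 6 mice of the PZH group were also given Pien Tze Huang (PZH), a traditional Chinese medicine, by mouth every day at 0.25 mg per g, and the 6 mice of the control group were given water. The mice were male and 6 weeks old at the start, and their livers were taken in week 8; the labels name the strain C57BL/8 and the study's methods C57BL/6J. No animals without CCl4 are among the samples, so each comparison is between fibrotic livers with and without PZH, and the question is which of these matrix genes differed.

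In a fibrotic liver, hepatic stellate cells turn into myofibroblasts that lay down collagen together with proteoglycans and adhesive glycoproteins. Small leucine-rich proteoglycans bind collagen fibrils and set their spacing, fibronectin forms the early scaffold to which cells attach through integrins, and matricellular proteins bind to this scaffold and act on the cells and growth factors in it. In a whole-tissue sample, fewer cells of a type and less RNA per cell cannot be told apart.

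Thbs1 and Vcan fell in the PZH group, to 1/7.82 and 1/5.71 of their mean FPKM in the control group. Fn1 was also called lower, Lum and Efemp1 were called higher, and Dcn, Bgn, Sparc, Postn and Ecm1 did not pass the test. These calls come from limma on log2(FPKM + 1) over all genes at a Benjamini-Hochberg adjusted p under 0.05. Thus 3 of the 10 genes were lower, where 4560 of all 14188 genes were (32.1%), and 2 were higher, where 1798 were (12.7%), so the counts of calls in this list were close to those over all genes. The size of the change set Thbs1 and Vcan apart from most genes. Both met the study's criteria of a 2-fold change with an unadjusted p under 0.05, which 355 genes met as lower (2.5%) and 215 as higher (1.52%). None of the 10 genes met them as higher by limma, with 3 of them above the control group at an unadjusted p under 0.05. The groups did not overlap in Thbs1 and Vcan, as in 2537 genes with PZH lower (17.9%), or in Lum, as in 917 genes with PZH higher (6.46%).

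The scale of the values bears on these counts. The median difference over all genes was -0.11 on the log2 scale with FPKM as deposited and -0.0049 after dividing each mouse by a median-ratio scale factor, and over the 10 genes it was 0.081 and 0.26. With those factors 2795 genes were lower (19.7%) and 2735 higher (19.3%), so that the lower genes made up 50.5% of the calls in place of 71.7%. Thbs1 and Vcan stayed lower and Lum and Efemp1 higher with the factors. Fn1 was then no longer called (adjusted p = 0.12, limma), and Bgn (adjusted p = 0.0076) and Postn (adjusted p = 0.047) were called higher.

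**Figure D1:**
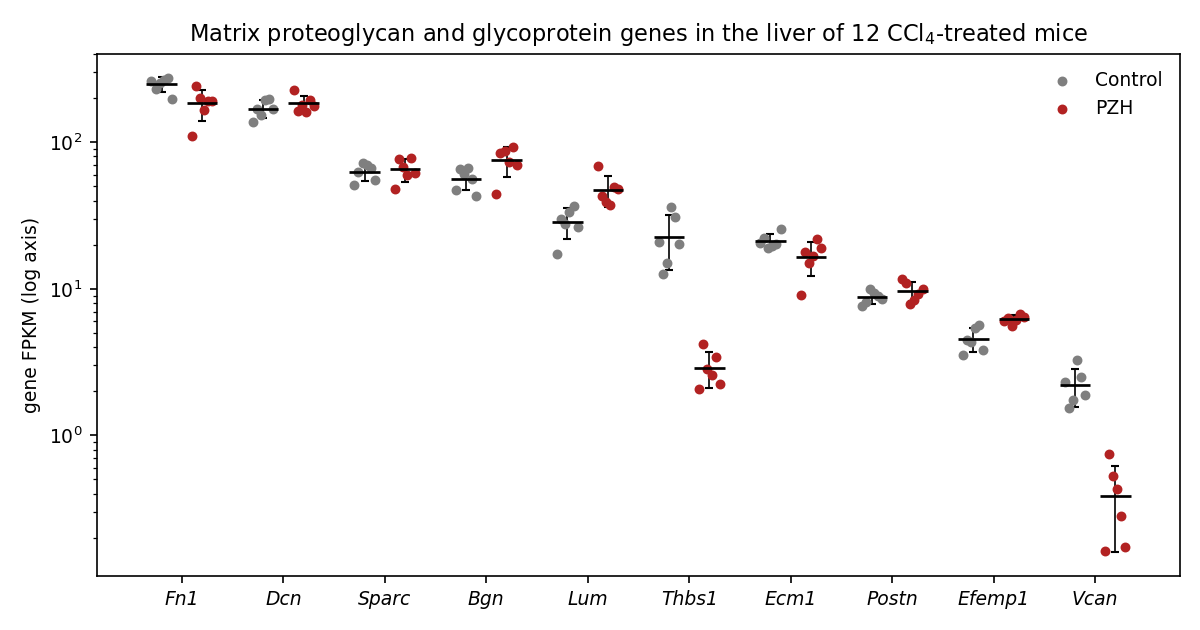
Gene FPKM of the 10 matrix genes (log axis) in each control mouse (grey) and each PZH mouse (red), ordered by the mean of the control group. Horizontal lines are means and bars are SD over 6 mice; the PZH mice lie below all control mice in Thbs1 and Vcan and above all of them in Lum.

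Among the PZH mice, PZH 1 stood apart in several of these genes. It had the lowest Thbs1 (2.09 FPKM), Vcan (0.163), Fn1 (109.9), Bgn (44.5), Ecm1 (9.005) and Sparc (48.0) and the highest Dcn (226), Lum (69.0) and Postn (11.8) of its group. Its FPKM summed to 370426, against 326060 to 346874 for the rest of its group and 325302 to 334194 for the control group, and its mean correlation with its own group over all genes was 0.973, against 0.979 to 0.982 for the other PZH mice. Read depth was not given in the sources used here. Without PZH 1 the differences of Thbs1 (-2.47), Vcan (-1.16), Lum (0.61) and Efemp1 (0.39) stayed called by limma, and those of Fn1, Bgn, Dcn, Ecm1, Postn and Sparc without it are given below.

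Thbs1 encodes thrombospondin-1, a matricellular glycoprotein of platelet granules and of injured tissue that can activate latent TGFβ. The gene lies on the plus strand at chr2:118111876-118127133 (GRCm38) and has 1 listed transcript. In the control mice Thbs1 lay between 12.7 and 36.4 FPKM with a median of 20.5, and in the PZH mice between 2.09 and 4.23 with a median of 2.72. Even the highest PZH mouse was far below the lowest control mouse. The means were 2.90 ± 0.807 and 22.7 ± 9.24 (SD, n = 6 per group), a difference of -2.54 on the log2(FPKM + 1) scale (SE 0.23, adjusted p = 1.39e-05, limma). All 6 PZH mice showed this direction, and 19 genes of the 14188 had a larger absolute difference. An exact permutation test on the single gene gave p = 0.0022, the smallest value that 924 labellings of 6 against 6 mice allow.

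A long noncoding transcript, Gm29233, lies inside Thbs1 on the opposite strand (chr2:118123451-118124047). It was the single noncoding transcript of the lncRNA table that overlapped any of the 10 genes. Its level was 0.303 ± 0.24 FPKM in the control mice and 0.0629 ± 0.0798 in the PZH mice (SD, n = 6 per group), where 3 mice were listed at 0 (exact permutation p = 0.0087). The libraries kept strand information, but the sources used here do not say whether strand was used in the assignment of reads, so reads of Thbs1 and of this transcript cannot be told apart.

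Vcan encodes versican, a large chondroitin sulfate proteoglycan that binds hyaluronan in provisional matrix. It was the lowest of the 10 genes in each group, on the minus strand at chr13:89655312-89742509. The control mice ranged from 1.54 to 3.29 FPKM with a median of 2.09, and the PZH mice from 0.163 to 0.743 with a median of 0.356. The groups did not overlap, and every PZH mouse was below 1 FPKM. The difference was -1.20 on the log2(FPKM + 1) scale (SE 0.14, adjusted p = 3.77e-05, limma; exact permutation p = 0.0022), a scale that understates the change of a gene near 1 FPKM. With a pseudocount of 0.1 it was -2.33 (adjusted p = 9.41e-05, limma).

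The versican transcripts differ in 2 exons that code for glycosaminoglycan attachment regions. Vcan-203 holds the one of 2880 bases (exon 7, chr13:89702918-89705797) and the one of 5217 bases (exon 8, chr13:89688285-89693501), the form known as V0. Vcan-206 holds only the larger one, the form known as V1. No Vcan transcript reached a mean of 1 FPKM over all 12 mice, and these are named after their values were seen. Vcan-206 had 1.25 ± 0.369 FPKM in the control mice, from 0.823 to 1.84, while 4 of the 6 PZH mice were listed at 0 and the highest had 0.694. Vcan-203 had 0.576 ± 0.265 FPKM in the control mice and 0.177 ± 0.0882 in the PZH mice. Both fell, Vcan-206 by 1.03 (adjusted p = 0.00068) and Vcan-203 by 0.41 (adjusted p = 0.020) on the log2 scale by limma over all transcripts.

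Lum was called higher in the PZH group, and Dcn and Bgn were not called. These small leucine-rich proteoglycans share a collagen-binding leucine-rich core, and Dcn and Lum are neighbours on the plus strand of chromosome 10 (chr10:97479609-97518143 and chr10:97565128-97572703). Lum ranged from 17.4 to 37.0 FPKM in the control mice with a median of 28.7, and from 37.4 to 69.0 in the PZH mice with a median of 45.4. The lowest PZH mouse lay just above the highest control mouse. Lum rose by 0.72 on the log2 scale (SE 0.18, adjusted p = 0.0054, limma; exact permutation p = 0.0022), and its mean in the PZH group was 1.66 times that of the control group.

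Bgn, on the X chromosome (chrX:73483602-73495933), ranged from 43.1 to 66.6 FPKM in the control mice with a median of 58.2, and from 44.5 to 92.4 in the PZH mice with a median of 79.1. In 5 of the 6 PZH mice it lay above the highest control mouse, and the exception was PZH 1. The difference of 0.39 did not pass the test over all mice (95% CI 0.026 to 0.76, adjusted p = 0.077, limma; exact permutation p = 0.061). Without PZH 1 it was 0.53 and passed (adjusted p = 0.0041, limma).

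Dcn was the most abundant of these proteoglycans, from 137 to 197 FPKM in the control mice with a median of 168, and from 161 to 226 in the PZH mice with a median of 178. The groups overlapped widely. The difference was 0.12 on the log2 scale (95% CI -0.11 to 0.35, adjusted p = 0.40, limma). With median-ratio factors it was 0.30 (95% CI 0.051 to 0.55, adjusted p = 0.055), and without PZH 1 or Control 1 it was 0.056 or 0.057. Dcn was not called in any of these settings, but its interval lay above 0 with the factors and reached below 0 without them.

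The main Dcn transcripts start at different first exons and share the other 7. Dcn-201 begins at chr10:97479609-97479789 and Dcn-202 at chr10:97482367-97482547. Dcn-201 made up 45.9% ± 2.41 of the gene's FPKM in the PZH mice and 40.5% ± 1.88 in the control mice (SD, n = 6 per group). The groups did not overlap, with 43.4% to 49.8% in PZH and 38.0% to 42.4% in control mice (exact permutation p = 0.0022), but the share was not called (adjusted p = 0.15). The FPKM of Dcn-201 was 84.4 ± 12.1 and 68.5 ± 6.87 in the PZH and control mice and that of Dcn-202 was 99.0 ± 13.4 and 100.8 ± 16.8, and neither passed limma (adjusted p = 0.070 and 0.94).

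**Figure D2:**
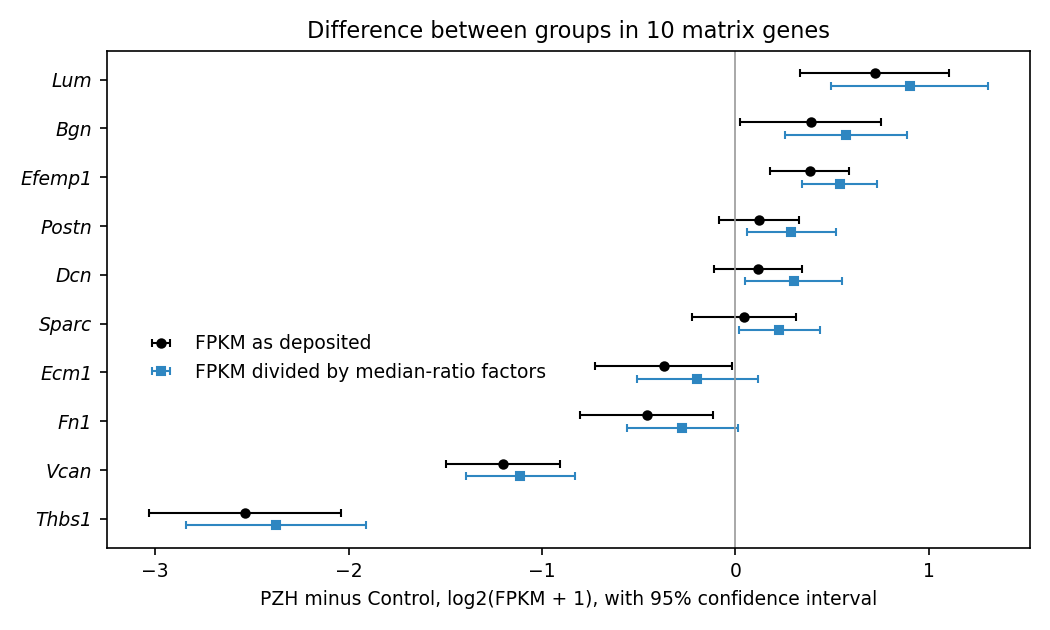
Difference between the PZH and control means of log2(FPKM + 1) for the 10 genes with 95% confidence intervals from limma (n = 6 mice per group), with FPKM as deposited (black) and after median-ratio factors (blue). The factors move every gene to the right; Thbs1 and Vcan stay far below 0 and Lum and Efemp1 above it, while the interval of Fn1 then reaches 0.013.

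Fn1 encodes fibronectin, which hepatocytes secrete into plasma and which fibroblasts, stellate cells and other cells deposit as an insoluble form. With 248 ± 28.8 FPKM in the control mice and 184 ± 44.0 in the PZH mice (SD, n = 6 per group), it was the most abundant of the 10 genes. The gene lies on the minus strand at chr1:71585520-71653200. The control mice ranged from 198 to 274 FPKM with a median of 259 and the PZH mice from 109.9 to 243 with a median of 192. The ranges overlapped, but 4 PZH mice were below the lowest control mouse and all 6 below the control median. The difference was -0.46 on the log2 scale (SE 0.16, adjusted p = 0.031, limma; exact permutation p = 0.015). This call was lost with median-ratio factors and on leaving out PZH 4 (adjusted p = 0.061), Control 1 (0.058), Control 3 (0.053), Control 4 (0.060) or Control 5 (0.064), with differences between -0.55 and -0.32 on leaving out any mouse. Without PZH 1 the difference was -0.32 and stayed called (adjusted p = 0.029).

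Fibronectin mRNA is spliced at 3 places. The extra domains B and A (EDB and EDA) are each a whole exon that is kept or skipped, and the variable (V) region is kept in full, in part or not at all. As background, plasma fibronectin of hepatocytes lacks EDB and EDA, and forms with them are made by mesenchymal and other cells of injured tissue. Of the 9 listed Fn1 transcripts, 7 run across all 3 places. Fn1-201 is the only one of them with EDB, and it also has EDA and the full V region of 120 residues. Fn1-211, Fn1-213 and Fn1-214 have EDA without EDB, and Fn1-203, Fn1-216 and Fn1-217 have neither.

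**Figure D3:**
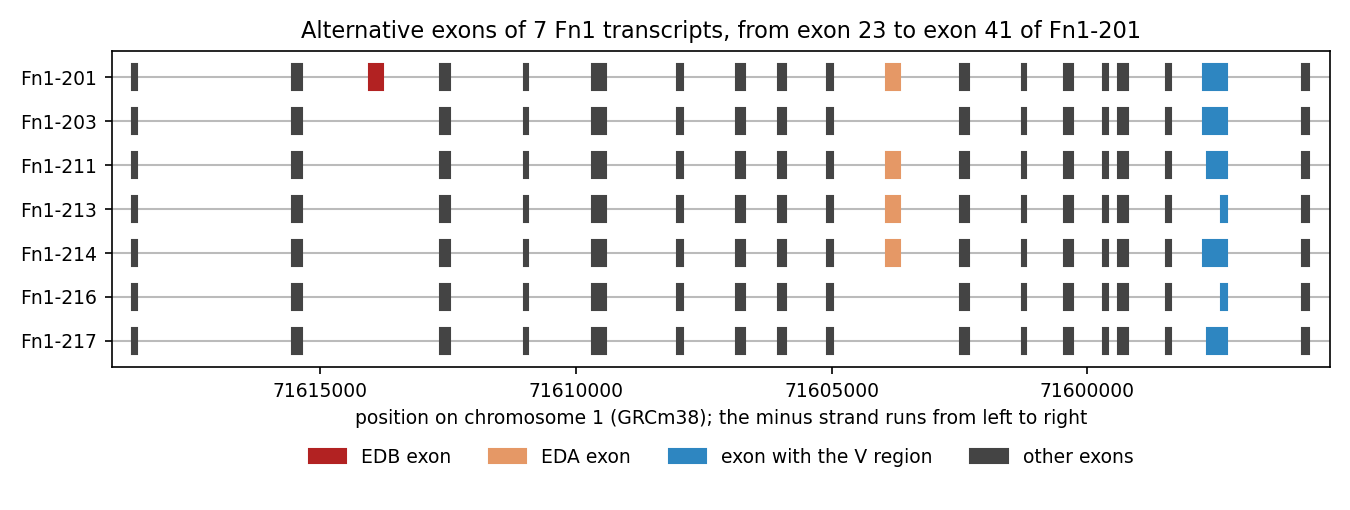
Exons of the 7 Fn1 transcripts that span the alternative segments, drawn to scale along chromosome 1 (GRCm38), with the direction of transcription from left to right. EDB (red) is present in Fn1-201 alone, EDA (orange) in 4 transcripts, and the exon that carries the V region (blue) is 467, 392 or 107 bases long.

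The EDB exon is exon 25 of Fn1-201, at chr1:71613763-71614035 on the minus strand, and its 273 bases code for 91 residues. The EDA exon is exon 33, at chr1:71603660-71603929, with 270 bases for 90 residues. They are shown because EDB sets Fn1-201 apart from the other spanning transcripts and EDA is the other segment that is a whole exon; capitals mark the exon and lower case the 12 bases of the neighbouring exons on each side, read from the GENCODE M21 transcript.
EDB exon of Fn1-201: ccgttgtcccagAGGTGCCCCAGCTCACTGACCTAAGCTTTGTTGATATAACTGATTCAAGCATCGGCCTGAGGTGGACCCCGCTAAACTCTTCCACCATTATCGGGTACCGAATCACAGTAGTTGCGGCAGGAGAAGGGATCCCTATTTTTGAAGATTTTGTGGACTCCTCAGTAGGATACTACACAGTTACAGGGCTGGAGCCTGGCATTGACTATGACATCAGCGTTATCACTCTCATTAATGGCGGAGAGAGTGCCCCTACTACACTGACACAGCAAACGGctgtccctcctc
EDA exon of Fn1-201: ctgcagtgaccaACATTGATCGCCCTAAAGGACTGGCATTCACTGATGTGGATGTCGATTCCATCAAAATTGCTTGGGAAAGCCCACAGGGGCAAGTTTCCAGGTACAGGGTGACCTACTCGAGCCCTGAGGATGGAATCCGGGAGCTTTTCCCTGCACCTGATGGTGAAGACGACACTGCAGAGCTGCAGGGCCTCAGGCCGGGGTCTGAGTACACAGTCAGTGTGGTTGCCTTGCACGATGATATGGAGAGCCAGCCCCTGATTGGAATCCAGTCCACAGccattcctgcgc

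The EDB transcript Fn1-201 fell in the PZH group and no other Fn1 transcript passed the test. It ranged from 78.6 to 139.8 FPKM in the control mice with a median of 97.1, and from 28.6 to 53.6 in the PZH mice with a median of 37.4. The groups did not overlap. Fn1-201 was -1.35 on the log2 scale (SE 0.16, adjusted p = 0.00022, limma over 29883 transcripts; exact permutation p = 0.0022), lower in all 6 PZH mice. Its mean in the control group was 2.60 times that in the PZH group, while that of the whole gene was 1.35 times.

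The other abundant Fn1 transcripts did not pass the test. Fn1-211 (EDA, 95 V residues) had 33.96 ± 10.8 FPKM in the PZH and 27.1 ± 10.6 in the control mice, and Fn1-213 (EDA, no V region) 36.1 ± 10.6 and 30.4 ± 8.39. Fn1-216, with none of these segments, had 29.0 ± 16.9 and 30.3 ± 7.23. Their adjusted p by limma lay between 0.49 and 0.63. Fn1-208, a short transcript of 7 exons and 1350 bases from the 5′ part of the gene, had 45.2 ± 21.2 and 56.3 ± 17.2 (adjusted p = 0.50).

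Summed over the 7 spanning transcripts, the EDB form made up 52.9% ± 9.47 of their FPKM in the control mice and 28.5% ± 6.31 in the PZH mice (SD, n = 6 per group). The shares ran from 43.4% to 65.7% and from 22.4% to 36.3%, so the groups did not overlap. The segment shares were chosen after transcript values were seen, and this one restates the level of Fn1-201 against the other spanning transcripts, so no p is given for it. The share with the full V region moved with it, at 53.6% ± 9.34 and 29.1% ± 6.61, because Fn1-201 carries nearly all of it. A V region of any length, also carried by Fn1-201, was in 68.4% ± 6.42 and 53.8% ± 6.03.

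EDA was in 82.7% ± 2.75 of the spanning FPKM in the control mice and 79.4% ± 10.3 in the PZH mice (exact permutation p = 0.52). A single mouse set that spread: PZH 4 had a share of 99.98% and 0.0062 FPKM of Fn1-216. The other PZH mice ranged from 72.7% to 77.8% and the control mice from 80.4% to 87.4%. Without PZH 4, singled out by this same share, the mean difference was -7.43 points (exact permutation p = 0.0022, which does not cover that choice), and on leaving out any other mouse it lay between -3.76 and -1.98 points (exact permutation p of 0.50 to 0.76), so no difference in EDA share is claimed. In FPKM, all transcripts with EDA summed to 109.3 ± 20.4 in the PZH and 158.7 ± 25.6 in the control mice. This sum includes Fn1-201, so no p is given for it. Transcripts with EDA but not EDB summed to 70.4 ± 21.1 in the PZH and 57.9 ± 18.8 in the control mice (exact permutation p = 0.31), and those with neither segment to 29.4 ± 16.9 and 32.8 ± 5.11 (exact permutation p = 0.70). Of the forms with EDB, with EDA alone and with neither, the EDB form was the one with groups apart, at 38.8 ± 8.35 against 100.9 ± 21.6 FPKM. These are FPKM that the assembler assigned to whole transcripts, not reads counted over the exons. Fn1-211, Fn1-213 and Fn1-216 were nearly equal in some mice, as in Control 4 (26.2, 27.0 and 27.1 FPKM). They were apart in others, as in Control 6 (7.15, 16.3 and 19.2 FPKM). The segment shares rest on this division of reads, which was not tested. The high share of EDA, which plasma fibronectin of hepatocytes lacks, was not checked with reads over the exon.

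**Figure D4:**
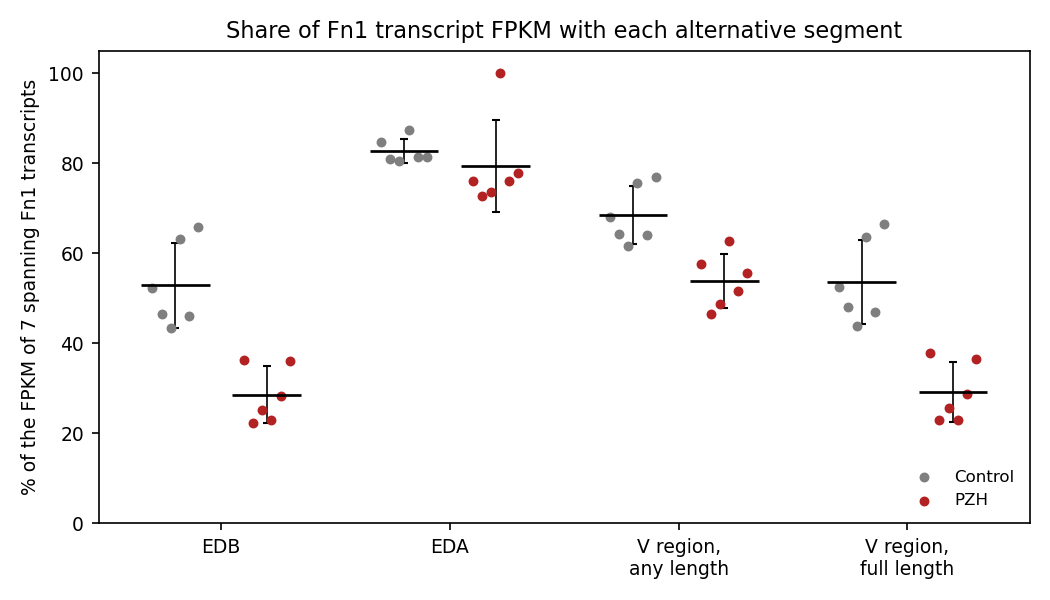
Percent of the FPKM of 7 spanning Fn1 transcripts that carries each alternative segment, in each control (grey) and PZH (red) mouse, with means and SD over 6 mice. The groups are apart for EDB and for the full V region, and 1 PZH mouse at 99.98% lies far from its group for EDA.

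Shares of transcripts within their gene were also tested over the whole table. Of 21497 transcripts, 0 passed by exact permutation with Benjamini-Hochberg adjustment (0%), and 2448 had an unadjusted p under 0.05 (11.4%). The smallest exact p was reached by 318 transcripts (1.48%), the ones whose groups did not overlap, and their adjusted p was 0.15, so shares of single transcripts could be ranked here but not called. Of the 32 transcripts of 7 of the genes, 13 had an unadjusted p under 0.05, and in 4 the groups did not overlap: Dcn-201 with Dcn-202 and Sparc-201 with Sparc-202. Within each of these genes the shares add up to nearly all of the gene, so a rise of one is a drop of the other. The share of Fn1-201 in its whole gene was 40.97% ± 8.76 in the control and 22.1% ± 7.09 in the PZH mice (exact permutation p = 0.0043, adjusted 0.18).

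At the level of transcripts, 7 of the 35 were called lower by limma, where 4186 of 29883 were (14%), and 2 higher, where 1712 were (5.73%). The lower ones were Thbs1-201, Fn1-201, Sparc-201, Ecm1-201, Ecm1-204, Vcan-203 and Vcan-206, and the higher ones Lum-201 and Efemp1-201.

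Sparc encodes a collagen-binding matricellular protein of remodelling tissue, at chr11:55394500-55423183 on the minus strand. The gene was not called: it ranged from 51.3 to 71.8 FPKM in the control mice with a median of 64.4 and from 48.0 to 78.3 in the PZH mice with a median of 65.0, with a difference of 0.045 (95% CI -0.22 to 0.31, adjusted p = 0.80, limma). That value depended on the scale and on single mice. With median-ratio factors it was 0.23 (95% CI 0.018 to 0.44, adjusted p = 0.080), without PZH 1 it was 0.13, and without Control 1, PZH 2 or PZH 5 it lay between -0.011 and -0.0035. Of its transcripts 1 was called. Sparc-201 had 20.7 ± 6.71 FPKM in the control and 11.4 ± 2.91 in the PZH mice and fell by 0.79 on the log2 scale (adjusted p = 0.025, limma), while Sparc-202 had 42.2 ± 11.2 and 54.0 ± 8.74 (adjusted p = 0.18). The share of Sparc-201 was 19.8% to 55.9% in the control mice and 13.6% to 19.5% in the PZH mice (exact permutation p = 0.0022, adjusted 0.15).

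Ecm1 encodes a secreted glycoprotein that hepatocytes make, at chr3:95734147-95739569 on the minus strand. It ranged from 18.9 to 25.6 FPKM in the control mice with a median of 20.4, and from 9.005 to 21.8 in the PZH mice with a median of 17.3. In 4 PZH mice it was below the lowest control mouse. The difference of -0.37 missed the threshold (95% CI -0.72 to -0.017, adjusted p = 0.082, limma; exact permutation p = 0.028), and single mice and the scale moved it to either side. Without PZH 5 it was -0.45 and passed (adjusted p = 0.038), without PZH 1 it was -0.22 (adjusted p = 0.092), and with median-ratio factors it was -0.20 (adjusted p = 0.31). The most abundant transcript, Ecm1-201, fell by 0.97 (adjusted p = 0.019, limma), from 14.3 ± 2.20 FPKM to 7.39 ± 3.65. Ecm1-202 had 2.57 ± 1.44 FPKM in the control mice and 6.23 ± 3.91 in the PZH mice (adjusted p = 0.14), and Ecm1-209 had 1.91 ± 1.17 and 0.765 ± 0.554 (adjusted p = 0.14).

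The pairs in Sparc and Ecm1 have in common that they differ by 3 bases at the start of 1 internal exon, where the acceptor is used at either of 2 adjacent positions. The junctions are shown because these 3 bases, in capitals, are what separates the internal sequence of the transcripts; the 12 bases before them belong to the upstream exon. For Sparc this is exon 3, at chr11:55407220-55407279 in Sparc-201 and chr11:55407220-55407276 in Sparc-202. For Ecm1 it is exon 6, at chr3:95737013-95737057 in Ecm1-202 and chr3:95737013-95737054 in Ecm1-201. Both genes are on the minus strand, so the extra bases lie at the higher coordinates. The pairs also differ in the length of their first exon, 293 and 111 bases in Sparc-201 and Sparc-202 and 195 and 197 in Ecm1-201 and Ecm1-202, and the last exon of Ecm1-202 is 1 base longer.
Sparc-201: ctggcagcccctCAGcagactgaagtt
Sparc-202: ctggcagcccctcagactgaagtt
Ecm1-202: aacagaaggaaaTAGacccgcctgccc
Ecm1-201: aacagaaggaaaacccgcctgccc

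Postn encodes periostin, a matricellular protein made by activated fibroblasts, at chr3:54361109-54391037 on the plus strand. It ranged from 7.63 to 9.98 FPKM in the control mice with a median of 8.74, and from 7.88 to 11.8 in the PZH mice with a median of 9.55. The groups overlapped, and the difference of 0.12 did not pass (95% CI -0.086 to 0.33, adjusted p = 0.33, limma); without PZH 1 it was 0.068. Its transcripts are told apart by cassette exons of 81 and 84 bases near the 3′ end and had no steady share: Postn-204, which lacks both, held from 10.7% to 85.0% of the gene in the PZH mice and from 15.8% to 76.0% in the control mice. Postn-201 and Postn-203 also spread widely, and none of these 3 transcripts passed limma (adjusted p between 0.40 and 0.83).

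Efemp1 encodes an extracellular glycoprotein of the fibulin family, at chr11:28853204-28926743 on the plus strand. The PZH mice were close to each other, from 5.57 to 6.74 FPKM with a median of 6.19, and the control mice ranged from 3.56 to 5.67 with a median of 4.42. In 5 PZH mice it lay above the highest control mouse. Efemp1 rose by 0.38 on the log2 scale (SE 0.094, adjusted p = 0.0052, limma; exact permutation p = 0.0043), and its main transcript Efemp1-201 did not overlap between the groups (5.45 to 6.54 FPKM in PZH and 3.19 to 5.27 in control mice).

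The order of levels within the control group was Fn1 at a mean of 248 FPKM, Dcn at 169.8, Sparc at 63.0, Bgn at 56.5, Lum at 28.6, Thbs1 at 22.7, Ecm1 at 21.1, Postn at 8.78, Efemp1 at 4.55 and Vcan at 2.21. The ranges of Sparc and Bgn, of Lum and Thbs1, and of Thbs1 and Ecm1 overlapped. In the PZH group Thbs1 stood at place 9, at 2.90 FPKM, below Efemp1 in all 6 mice. Fn1 and Dcn had nearly the same mean there, 184.0 FPKM each, and Fn1 was the higher in 4 of 6 mice. The ranges of Bgn and Sparc, of Sparc and Lum, and of Ecm1 and Postn also overlapped in that group. Spread between mice was wide for Fn1, Bgn and Ecm1 in the PZH group, with SDs of 0.38, 0.38 and 0.41 on the log2 scale, against a median of 0.20 over the 10948 genes with a mean of at least 1 FPKM. The spread was smaller without PZH 1: in that alternative, chosen after its values were seen, the SDs were 0.20, 0.17 and 0.19, and the median 0.15. In the control group the spread was widest for Thbs1 and Lum, with SDs of 0.56 and 0.36, against a median of 0.17 over the same genes.

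Related matrix genes were counted in the same fit of all genes, where 32.1% were lower, 12.7% higher and the median difference was -0.11. With median-ratio factors 19.7% of all genes were lower, 19.3% higher and the median was -0.0049. The lists below were not tested against these shares. Among other small leucine-rich proteoglycans, 5 of 11 listed genes rose and 2 fell, with a median difference of 0.21 on the log2 scale. Osteomodulin (Omd) went from 0.592 ± 0.196 FPKM in the control to 1.89 ± 0.312 in the PZH mice (adjusted p = 3.17e-05, limma) and osteoglycin (Ogn) from 0.982 ± 0.158 to 2.11 ± 0.46 (adjusted p = 0.00024). Tsukushi (Tsku) fell from 58.0 ± 22.1 to 24.4 ± 5.85 FPKM (adjusted p = 0.00074). Of 17 listed other proteoglycans 2 rose and 5 fell, with a median of -0.13, and with the factors 3 were higher and 4 lower, with a median of 0.036. The intracellular granule proteoglycan serglycin (Srgn) fell by 1.16, the cell-surface heparan sulfate proteoglycan Gpc1 fell by 0.64, and the syndecan Sdc2 rose by 0.66 (adjusted p = 8.14e-05, 0.0065 and 0.00014).

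Other matricellular genes were split, with 4 of 15 listed genes lower and 3 higher both with FPKM as deposited (median -0.069) and with the factors (median 0.014). Tenascin-C (Tnc) fell from 8.91 ± 1.43 to 2.42 ± 1.33 FPKM (adjusted p = 5.61e-05, limma). The genes Ccn1 and Ccn2, of a family of growth-factor-binding matricellular proteins, fell from 10.4 ± 3.76 to 2.82 ± 0.639 and from 7.88 ± 2.36 to 3.05 ± 0.783 FPKM (adjusted p = 7.99e-05 and 0.00037). All 4 lower genes met the 2-fold criteria, as did Thbs1. Of the 17 listed fibulin, fibrillin and elastic fibre genes 5 rose and 2 fell, with a median of 0.075, and with median-ratio factors 8 were higher and 1 lower, with a median of 0.16. Fbln5, a fibulin needed for elastic fibres, rose by 0.77 and elastin (Eln) by 0.60, and Emilin2 fell by 0.55 (adjusted p = 0.032, 0.0052 and 0.012).

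Of the 13 laminin and nidogen genes of basement membranes, 4 rose and 2 fell, with a median of 0.023. With median-ratio factors 5 were higher and 2 lower, with a median of 0.17. Nidogen-1 (Nid1) fell from 39.3 ± 7.23 to 16.9 ± 5.11 FPKM and the laminin chain gene Lamc1 from 12.6 ± 2.27 to 7.70 ± 1.70 (adjusted p = 0.00016 and 0.0032, limma), while Lama3 rose from 0.151 ± 0.0379 to 0.621 ± 0.122 (adjusted p = 6.06e-05). Of 16 listed plasma and other matrix glycoproteins 5 fell, close to the 32.1% of all genes, and 0 rose by limma, also with 0 higher at an unadjusted p under 0.05, and the median was -0.062. The fibrinogen chains Fga and Fgb, acute-phase proteins of hepatocytes, went from 3879 ± 832 to 1538 ± 123 FPKM and from 2086 ± 409 to 914 ± 77.9, and Fgl1 from 339 ± 114 to 112 ± 14.6 (adjusted p = 1.56e-05, 2.28e-05 and 5.85e-05). With median-ratio factors this list had 4 lower and 2 higher genes and a median of 0.00078.

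Receptors and processing enzymes of the matrix were counted in the same way. Of 24 genes for receptors of matrix proteins, collagen receptors among them, 12 fell and 2 rose (against 32.1% and 12.7% of all genes), with a median of -0.23. With median-ratio factors 8 fell and 5 rose (against 19.7% and 19.3%), with a median of -0.063. The hyaluronan receptor Cd44 fell by 1.02 and the integrin chain Itgb3 by 0.81, and the integrin chain Itga8 rose by 1.64, from 3.11 ± 0.938 to 11.7 ± 1.94 FPKM (adjusted p = 0.00026, 7.20e-05 and 1.31e-05, limma). Of 29 listed genes for glycosaminoglycan synthesis 14 fell, against 32.1% of all genes, and 0 rose by limma, against 12.7%, with 0 higher at an unadjusted p under 0.05. The median was -0.23, against -0.11 over all genes. With median-ratio factors the median was -0.10, against -0.0049 over all genes, and 11 fell, against 19.7% of all genes. The chondroitin sulfate enzymes Chsy3, Chst11 and Csgalnact2 fell by 1.31, 1.28 and 0.85 (adjusted p = 0.00011, 2.01e-05 and 0.00039). Of 10 listed matrix-cleaving enzymes 3 fell and 1 rose, with a median of 0.069. With median-ratio factors 3 were lower and 4 higher, with a median of 0.17. The 3 called genes of this list with the largest differences were proteases: Adamts1 fell by 1.45 and Adamts4 by 1.15, and Adamts5 rose by 0.90 (adjusted p = 0.00017, 0.00012 and 3.71e-05).

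Markers of the cells that a liver sample holds were summed for each mouse. The 8 hepatocyte markers summed to 50047 ± 6834 FPKM in the PZH mice and 32747 ± 4934 in the control mice (SD, n = 6 per group), without overlap (43317 to 60068 and 25165 to 38934; exact permutation p = 0.0022, adjusted over 10 marker lists 0.0215). Albumin (Alb), the most abundant of them, was 38437 ± 5471 and 24059 ± 4039 FPKM, 4 of the 8 rose, and Hnf4a was lower. With median-ratio factors 6 were called higher by limma, and Hnf4a lost its call (adjusted p = 0.18). Hepatocytes make Ecm1 and plasma fibronectin, and the part of this difference in the values of Fn1 and Ecm1 was not tested.

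Stellate cell markers, 8 genes, summed to 72.4 ± 8.29 FPKM in the PZH mice and 56.2 ± 10.8 in the control mice (61.4 to 81.3 and 37.6 to 67.4; exact permutation p = 0.015, adjusted 0.051). With median-ratio factors the ratio of these sums was 1.46 and passed (exact permutation p = 0.0022, adjusted 0.011). With FPKM as deposited 3 of these markers rose and 1 (Des) fell, and with the factors 4 were higher and 1 lower. Reln was the most abundant, at 24.9 ± 5.16 and 12.4 ± 4.47 FPKM. The 8 markers of activated stellate cells and myofibroblasts summed to 124.2 ± 27.4 and 123.7 ± 27.5 FPKM (89.3 to 162 and 87.3 to 153; exact permutation p = 0.97) but were split within. Timp1, Tagln, Acta2 and Lox fell, Timp1 from 10.5 ± 2.50 to 1.61 ± 0.541 FPKM and Acta2 from 12.9 ± 3.77 to 6.51 ± 2.99, whereas Col3a1, the most abundant, rose from 35.8 ± 10.1 to 54.5 ± 9.83. With median-ratio factors 4 were lower and 2 higher, as Col1a2 was then also called higher (adjusted p = 0.040, limma). Whether these cells account for the lower Thbs1, Vcan and EDB fibronectin or for the higher Lum was not tested.

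The 5 platelet markers summed to 5.44 ± 1.39 FPKM in the PZH mice and 7.84 ± 0.936 in the control mice (3.85 to 7.38 and 6.63 to 9.13; exact permutation p = 0.0043, adjusted over 10 marker lists 0.0215), and with median-ratio factors their ratio was 0.798 (exact permutation p = 0.10). Pf4, the most abundant, fell from 6.39 ± 0.893 to 4.29 ± 1.25 FPKM (adjusted p = 0.011, limma) but lost its call with the factors (adjusted p = 0.095), and Itga2b, Ppbp, Gp9 and Gp1bb did not pass. Platelets carry Thbs1, and the part of this difference in Thbs1, whose mean was 7.82 times as high in the control mice, was not tested.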

How the data were processed

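Liver RNA of 6 PZH and 6 control mice, all given CCl4, was sequenced as strand-specific libraries. Trimming (Trimmomatic), alignment to GRCm38 (HISAT2) and assembly on an Ensembl annotation (StringTie) were done by the authors, whose deposited tables hold FPKM of 29883 protein-coding and 1432 lncRNA transcripts. Read depth is unknown, so no counting intervals are given.

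Transcripts were assigned to genes by GENCODE M21 (29876 matched), and gene FPKM was summed. Groups were compared with limma 3.58.1 (R 4.3.3, default eBayes) on log2(FPKM + 1) with no filter, with Benjamini-Hochberg adjustment over all genes or transcripts, and tested on simulated data beforehand. Single values and transcript shares (genes with a mean of at least 1 FPKM) were compared by two-sided exact permutation tests with scipy 1.17.1 (Python 3.11.15, pandas 2.3.3, numpy 2.4.6, matplotlib 3.10.9). The exact p of the 10 genes are not adjusted. Alternatives were a pseudocount of 0.1, a mean of at least 1 FPKM, median-ratio factors, equal FPKM sums, a mean-variance trend, a replicate block and leaving out each mouse. All 10 genes, their transcripts with a mean of at least 1 FPKM, and the 3 called genes with the largest absolute difference of each related list are named, with every gene of lists of up to 5. Fn1 transcripts under 1 FPKM, those of Vcan and Ecm1-204 are named after their values were seen. The members and lists were chosen with earlier results of these data known. The intervals are 95% confidence intervals. Sequences are from GENCODE M21 transcripts.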

Additional observations from a re-analysis of the deposited data

Results flagged for a closer look

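In 6 of 52 groups of 6 mice, over the 10 genes and their transcripts with a mean of at least 1 FPKM in genes with several listed, 1 mouse lay farther from its nearest neighbour than the spread of the other 5 would usually leave. All were single transcripts and none was a gene total, and chance gives about 5% of groups. Fn1-208 was 7.03 FPKM in PZH 1 (41.4 to 69.0 in the other PZH mice), and Fn1-216 was 0.0062 FPKM in PZH 4 (23.2 to 50.0 in the others). Fn1-211 was 7.15 FPKM in Control 6 (26.2 to 37.8 in the others), the mouse in which Fn1-217 was 8.92 FPKM and at most 0.286 in every other mouse. Transcripts under that mean, such as Fn1-217, were not among the 52 groups, and some of those named in the report also rest on 1 mouse: in the PZH group Vcan-206 was 0.694 FPKM in PZH 2 (at most 0.0042 in the others) and Ecm1-204 was 0.809 FPKM in PZH 3 (0 in the others). Ecm1-202 was 5.44 FPKM in Control 3 (at most 2.43 in the other control mice), Postn-203 was 4.60 FPKM in PZH 3 (at most 0.825 in the others), and Postn-204 was 6.77 FPKM in Control 5 (at most 2.36 in the others). How the assembler divided reads among these similar transcripts was not tested.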

How the results depend on the processing

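With median-ratio factors the genes called lower went from 4560 to 2795 and those called higher from 1798 to 2735, and 4 of the 10 genes were higher in place of 2; the factors were 0.856 to 1.02 in the PZH and 1.04 to 1.12 in the control mice. On leaving out single mice, 3989 to 4624 genes were lower, 1529 to 1891 higher, 2 to 4 of the 10 genes lower and 2 to 3 higher. Thbs1, Vcan, Lum and Efemp1 kept their direction and call in all 19 alternatives run for each, with the difference of Thbs1 between -2.87 and -2.38 and that of Lum between 0.59 and 0.90, and the count of genes meeting the 2-fold criteria (2) and of Fn1 transcripts called lower (1) was the same in every setting. The share of EDB differed by -26.2 to -21.8 points on leaving out single mice. Shares of transcripts gave 0 calls in each setting run, from which no stability can be read. With all mice even the smallest possible exact permutation p, 0.0022, had an adjusted p of 0.15. Directions that turned were all of differences that had not been called. Dcn was -0.019 from its most abundant transcript alone. Sparc was -0.011 without Control 1, -0.0035 without PZH 2 and -0.010 without PZH 5, and it was 0.13 without PZH 1. The ratio of marker sums with median-ratio factors was 1.11 for sinusoidal endothelium, 1.11 for Kupffer cells and 1.14 for T and B lymphocytes. The causes were not tested. The cholangiocyte marker sum had an exact permutation p of 0.25 with the factors. Apart from counts, 237 alternative values kept their direction and side of the threshold, 9 lost it, 8 gained it and 7 turned. This tally judges marker sums by their unadjusted exact permutation p. With that p adjusted over the 10 marker lists, the stellate cell sum passed only with the factors (0.051 as deposited, 0.011 with them). The cholangiocyte sum (0.12 and 0.32) and the monocyte and macrophage sum (0.25 and 0.10) passed in neither. The platelet sum lost its call (0.0215 and 0.21). Mice of the same number did not deviate together (correlations of deviations from -0.078 to 0.093, and 0 of 6 PZH mice matched its own number best). With the replicate number as a block, 4288 genes were lower and 1694 higher, Fn1 had an adjusted p of 0.057 and Bgn of 0.031 by limma, and no other of the 10 calls changed. Unknown read depth limits what can be said of transcripts under 1 FPKM.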

Other observations

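The marker sums of 6 other cell types did not pass after adjustment over the 10 marker lists. Monocyte and macrophage markers summed to 323 ± 75.6 FPKM in the PZH mice and 260.3 ± 53.8 in the control mice (SD, n = 6 per group; exact permutation p = 0.13), and the list was split: Gpnmb rose from 21.0 ± 6.24 to 47.2 ± 10.6 FPKM and Trem2 from 5.58 ± 1.83 to 9.16 ± 2.26, whereas Cd68, Itgam and Ly6c2 fell (limma). Lyz2 was the most abundant, at 235 ± 63.7 and 189.7 ± 44.6. With median-ratio factors the exact permutation p of the sum was 0.030 (adjusted over the 10 marker lists 0.10), and 2 of the 7 rose and 0 fell.

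Kupffer cell markers summed to 173 ± 29.7 and 178 ± 22.5 FPKM (exact permutation p = 0.80). Among them the scavenger receptor Marco fell from 41.9 ± 15.1 to 9.46 ± 6.88 FPKM (adjusted p = 0.00070, limma) while Vsig4 and Clec4f rose. With median-ratio factors Adgre1 of this list was also called higher (adjusted p = 0.030, limma). Sinusoidal endothelium markers summed to 113.6 ± 9.61 and 116.6 ± 6.44 FPKM (exact permutation p = 0.55), with Lyve1 and Pecam1 lower; with median-ratio factors 2 genes (Kdr and Oit3) were higher and Pecam1 lost its call (adjusted p = 0.19). The 5 listed cholangiocyte markers summed to 100.8 ± 26.7 and 135 ± 23.7 (exact permutation p = 0.050, adjusted 0.12). Most of this sum was Spp1, at 94.1 ± 26.9 and 120.8 ± 22.3 FPKM. Sox9 fell from 10.7 ± 1.78 to 2.73 ± 0.43 FPKM, and Spp1, Krt19, Krt7 and Epcam did not pass. With median-ratio factors Epcam was called higher (adjusted p = 0.048, limma). Portal fibroblast and mesothelium markers summed to 13.8 ± 2.35 and 13.2 ± 3.41 (exact permutation p = 0.70), with Cd34 higher. T and B lymphocyte markers summed to 12.6 ± 1.75 and 12.7 ± 4.24 (exact permutation p = 0.94). None of these 6 genes was called by limma, also at an unadjusted p under 0.05, where 0 passed. With median-ratio factors Ms4a1 of this list was called higher (adjusted p = 0.038, limma).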
